A study of Homo sapiens with 3 samples.

Results

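Expression in GFP-SAS cells treated with the small interfering RNA (siRNA) siAkt1-58 was set against that in cells treated with the non-targeting siRNA siNT, gene by gene across the annotated array. The labels call the cells GFP-SAS and trace them to SAS, a long-established line from a human carcinoma of the tongue; no other feature of the culture is given in the sources used here. Both treatments were at 10 nM for 24 h, on RNA measured with 1 Affymetrix array each, and these are 2 of the 3 libraries of the study. The library with siAkt1-22, another siRNA against AKT1 at the same dose and time, is used to show which differences it shared. Its values also enter the expression filter and the choice of probe set described below. With 1 library a side no difference has a replicate check or a test, and whether the libraries came from separate cultures is not given in the sources used here. The comparison covered 12779 of 18239 genes with a named probe set, those whose mean log2 value over the 3 libraries reached the 30th percentile of 3.93, called here the filter level. A gene's value is that of its brightest probe set by the mean over the 3 libraries. All differences are log2 values of siAkt1-58 minus siNT unless stated, so that 1 is 2-fold.

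AKT1 encodes a serine/threonine kinase of the PI3K pathway, which carries signals from growth factor receptors to cell growth, survival and entry into the cell cycle. In G1 the D cyclins with CDK4 and CDK6, then the E cyclins with CDK2, phosphorylate the retinoblastoma protein, which frees E2F factors to transcribe the genes of DNA replication and nucleotide synthesis. Genes of mitosis are transcribed later in the cycle, many through a promoter element called the CHR. In a bulk culture, fewer cells in a phase and less RNA per cell cannot be told apart.

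AKT1 itself read 6.75 with siNT, 3.67 with siAkt1-22 and 3.47 with siAkt1-58. With siAkt1-58 that is 9.71-fold lower, but the value lay below the filter level, where low signal may bound the readable fold. A second AKT1 probe set above the filter level differed by -1.29, and the last, below it, by 0.00. AKT2, the related kinase, read 7.71 with siNT and 7.69 with siAkt1-58, and its other probe sets differed by -0.24 to 0.08. With siAkt1-22 AKT2 was lower, by -0.97.

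With siAkt1-58, 457 of the 12779 genes read at least 2-fold lower than siNT (3.58%) and 197 at least 2-fold higher (1.54%). The low side also reached further: 59 genes were at least 4-fold lower and 10 at least 4-fold higher. The median difference over all genes was 0, with quartiles of -0.14 and 0.19, and 45.6% of genes read above siNT by any amount against 37.0% below. Exactly equal values in both libraries were found for 17.4% of genes. The 2-fold limit fell between FBXL15 at 1.00465 and EPHX2 at 0.99984 on the high side and between TCF19 at -1.0006 and C17orf58 at -0.999408 on the low side. Lower genes were most frequent at 6.06%, in the second brightest of 5 equal groups by expression, and least at 0.665%, in the dimmest. Among the 308 lower genes with another probe set above the filter level, 200 (64.9%) had another at least 2-fold lower, and among 134 such higher genes 60 (44.8%) had another at least 2-fold higher. No other probe set above the filter level was 2-fold on the opposite side for any of these genes. Over the 97 lower genes that the naming rule allows, 126 other probe sets above the filter level gave 118 on the same side, 6 equal and 2 opposite, and over the 38 higher ones 47 gave 44, 2 and 1. Spike-in RNA added ahead of labelling, read by 24 poly-A control probe sets, gave a median difference of -0.01 (from -0.31 to 0.20), and of -0.56 with siAkt1-22. Squamous epithelial markers read 9.51 with siNT and 10.03 with siAkt1-58 in the median of the 7 of 12 measured, with summed log2 values of 60.7 and 63.5. Markers of leukocytes, fibroblasts and endothelium had medians of 3.48 to 3.61 in both libraries, below the filter level, with 2 of each list above it, and none differed 2-fold.

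**Figure D1:**
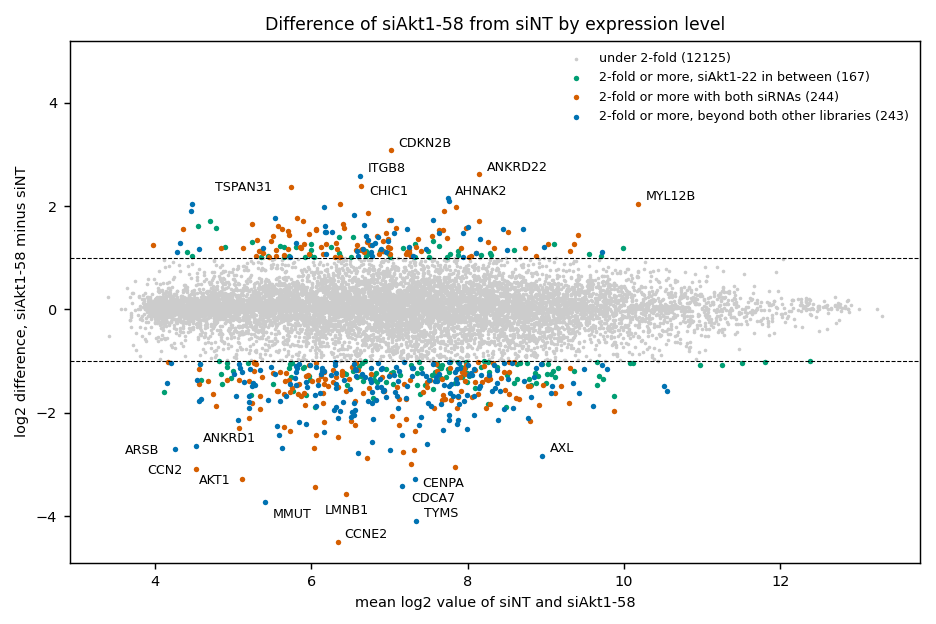
Log2 difference of siAkt1-58 from siNT (vertical axis) against the mean log2 value of these libraries (horizontal axis), 1 point per gene for 12779 genes; dashed lines mark 2-fold and colours mark whether siAkt1-22 shared the difference. The low side reaches -4.50 at CCNE2 and the high side 3.08 at CDKN2B.

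The 20 lowest genes included CCNE2, TYMS, LMNB1, ZNF367, CDCA7, CENPA, DSCC1 and MCM10. CCNE2, an E-type cyclin that activates CDK2 at the start of S phase, read 8.59 with siNT, 7.25 with siAkt1-22 and 4.08 with siAkt1-58. The last is 22.7-fold below siNT, and the other CCNE2 probe set differed by -2.60. TYMS, the thymidylate synthase that makes dTMP for DNA synthesis, read 9.39 with siNT, 9.76 with siAkt1-22 and 5.30 with siAkt1-58, 17.0-fold lower than siNT. Its other probe set differed by -3.72, so that siAkt1-58 stood far below both other libraries on both TYMS probe sets. LMNB1, which encodes the nuclear lamina protein lamin B1, read 8.23, 7.08 and 4.66 in the same order, and its other probe sets differed by -3.60, -3.62 and -1.85. CENPA, the histone H3 variant that marks centromeres, read 8.97, 8.65 and 5.68, with -3.66, -3.78 and -2.66 on its other probe sets. CDCA7, a chromatin protein of dividing cells, read 8.87, 8.38 and 5.45, but its other probe set differed by only -0.84. ZNF367, a zinc finger factor, read 7.76, 5.77 and 4.32. DSCC1, a part of the clamp loader for sister chromatid cohesion, read 8.77, 7.33 and 5.77 (-2.64 and -2.32 on other probe sets), and MCM10, which helps to start replication forks, 6.98, 6.39 and 4.28 (-2.16 and -2.72). In these 8 genes siAkt1-58 was the lowest of the 3 libraries, and 4 of them, CCNE2, LMNB1, ZNF367 and DSCC1, were at least 2-fold lower with siAkt1-22 as well.

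Also among the 20 lowest were genes with other roles. MMUT, the mitochondrial methylmalonyl-CoA mutase, read 7.27 with siNT, 7.79 with siAkt1-22 and 3.54 with siAkt1-58, and its other probe sets differed by -2.50 and -1.42. ARSB, a lysosomal sulfatase, read 5.61, 6.13 and 2.91, and its other probe sets were below the filter level. Most genes listed with MMUT and ARSB were not 2-fold lower. Of 13 measured propionate and cobalamin genes 2, MMUT and MMACHC (-1.36), were 2-fold lower (15.4%), with a list median of 0.00. Of 8 lysosomal sulfatases 1, ARSB, was 2-fold lower (12.5%), with a median of 0.43. The share over all genes was 3.58%, and both list shares include a gene already among the 20 lowest. PTX3, a secreted pattern recognition protein, read 9.36, 8.12 and 6.32. TGFBR1, the TGF-beta type I receptor, read 8.56, 4.69 and 5.79, so that it was lower still with siAkt1-22. NFIB, a nuclear factor I transcription factor, read 8.68, 6.99 and 5.95, and its 4 other probe sets were lower by -1.25 to -2.62. MAML2, a Notch coactivator, read 8.0, 7.79 and 5.21 on its brightest probe set but differed by 0.00 on the other. DLEU2, a noncoding RNA, differed by -2.73, and SPTY2D1 and SMIM13 by -2.67 and -2.88. An SPTY2D1 probe set differed by -1.98 and others by -0.01 and 0.00, and the other SMIM13 probe set above the filter level by -0.33.

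DNA replication genes were lower as a list with siAkt1-58. All 56 measured members of 57 listed read below siNT, against 37.0% of all genes. At least 2-fold lower were 35 of them (62.5%), against 3.58% of all genes. The exact binomial 95% interval of the 62.5%, 48.5% to 75.1%, covers counting of genes only. It takes members as independent, though all were read from the same 2 libraries, so it is no test of the list. The members had a median of -1.31, against 0 over all genes, and no member was 2-fold higher. With siAkt1-22 the median was -0.33 and 9 members were 2-fold lower, against 5.97% of all genes with that siRNA. Since both differences use the same siNT library, they are given side by side and not as separate evidence. Set directly against siAkt1-22, 18 members were at least 2-fold lower with siAkt1-58 and 0 were 2-fold higher. The members had 80 other probe sets above the filter level, of which 72 read below siNT, 45 at least 2-fold, and 1 above it, at 0.02.

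Promoter stretches are shown for 5 of these S-phase genes, because TYMS, CDCA7 and the replication genes were low together and E2F factors are known to act at such promoters. They are 80-base windows from RefSeq promoters on GRCh38.p14, written 5′ to 3′ on the gene's strand, and capitals mark a match on either strand to an E2F form (TTTCCCGC, TTTCGCGC, TTTGCCGC or TTTGGCGC).
TYMS, chr18:657578-657657, plus strand: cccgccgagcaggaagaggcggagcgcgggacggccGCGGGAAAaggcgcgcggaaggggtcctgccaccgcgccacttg
CDCA7, chr2:173354771-173354850, plus strand: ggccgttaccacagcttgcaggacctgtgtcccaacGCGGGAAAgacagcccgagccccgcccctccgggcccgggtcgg
RFC3, chr13:33818058-33818137, plus strand: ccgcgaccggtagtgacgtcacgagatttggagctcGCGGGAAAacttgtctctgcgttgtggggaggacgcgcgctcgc
TIPIN, chr15:66356708-66356787, minus strand: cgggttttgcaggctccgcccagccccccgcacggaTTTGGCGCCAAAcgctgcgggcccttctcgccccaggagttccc
CDC6, chr17:40287829-40287908, plus strand: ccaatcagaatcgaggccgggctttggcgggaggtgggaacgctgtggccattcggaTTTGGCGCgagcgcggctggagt
The match begins 39 bases before the start site in TYMS, 65 before it in CDCA7, 55 in RFC3 and 66 before it in TIPIN, and at base 8 after it in CDC6. In TIPIN 2 matches on opposite strands overlap.

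An E2F form was found in the promoters of 25 of 48 DNA replication genes with a promoter sequence (52.1%), against 650 of 10414 genes tested (6.24%). Among all genes at least 2-fold lower it was found for 59 of 388 (15.2%), and among those at least 2-fold higher for 6 of 170 (3.53%). Of the 2-fold lower genes that belong to no cell cycle list, 33 of 318 (10.4%) held one. The replication genes with a match had a median difference of -1.48 and the 23 without one -1.05, and genes without a match included MCM10 at -2.69. A match is a description of the letters in a promoter window of 300 bases and not a measured site, and 3.99% of the 27305 genes with any promoter sequence held one.

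By role, the origin licensing genes had a median of -1.11, with 9 of 18 at least 2-fold lower. CDC6, which loads the helicase at origins, read 9.44 with siNT, 8.52 with siAkt1-22 and 7.54 with siAkt1-58, and its other probe set differed by -1.94. ORC1, the largest origin recognition subunit, read 5.98, 5.58 and 4.49, whereas ORC2 and ORC4 differed by -0.17 and -0.09. Among the MCM2 to MCM7 subunits of the replicative helicase, MCM7 read 11.26, 11.41 and 9.78 and MCM4 9.88, 9.81 and 8.26. Their other probe sets differed by -1.48 to -1.58 and by -1.65 to -1.79, so both genes were at or near the siNT level with siAkt1-22 and more than 2-fold lower with siAkt1-58 on each of their probe sets. MCM6 read 7.99, 5.81 and 6.25 and was lowest with siAkt1-22. MCM2 and MCM3 differed by only -0.15 and -0.49 on the brightest probe set that stands for the gene. Their 3 other probe sets each, all above the filter level, differed by -1.50 to -1.62 for MCM2 and -1.26 to -1.55 for MCM3, so the choice of probe set decides whether these genes count among the 35. MCM5, with 1 probe set, differed by -0.33. The choice of probe set also matters for CDC45 (-0.47, but -1.63 and -1.18 on other probe sets) and for CDT1 (-0.89, but -1.28 and -0.61).

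Genes of origin firing and the replication fork had a median of -1.34, with 26 of 38 at least 2-fold lower. RFC3, a subunit of the clamp loader, read 9.46 with siNT, 8.75 with siAkt1-22 and 7.31 with siAkt1-58, and another probe set differed by -2.10. RFC5 of the same complex read 8.47, 8.40 and 6.60, and RFC4 9.19, 9.73 and 7.85. PCNA, the sliding clamp that this complex loads, read 10.72, 9.98 and 9.04. POLE2, a subunit of the leading strand polymerase, read 7.54, 7.21 and 5.46. TIPIN, which stabilises forks, read 7.56, 7.73 and 5.52, though its other probe sets differed by -1.35 and -0.41. GINS4 and GINS2, parts of the helicase complex, differed by -1.95 and -1.49, the nuclease and helicase DNA2 by -2.36, and UHRF1, which guides maintenance DNA methylation, by -1.92. At the other end RPA1, of the single-strand binding complex, read 9.40 and 9.39, and RPA3 differed by -0.18. The siAkt1-22 values of DNA2, UHRF1 and DTL (-1.72, and -1.47 with siAkt1-22) lay nearer to siAkt1-58 than to siNT.

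**Figure D2:**
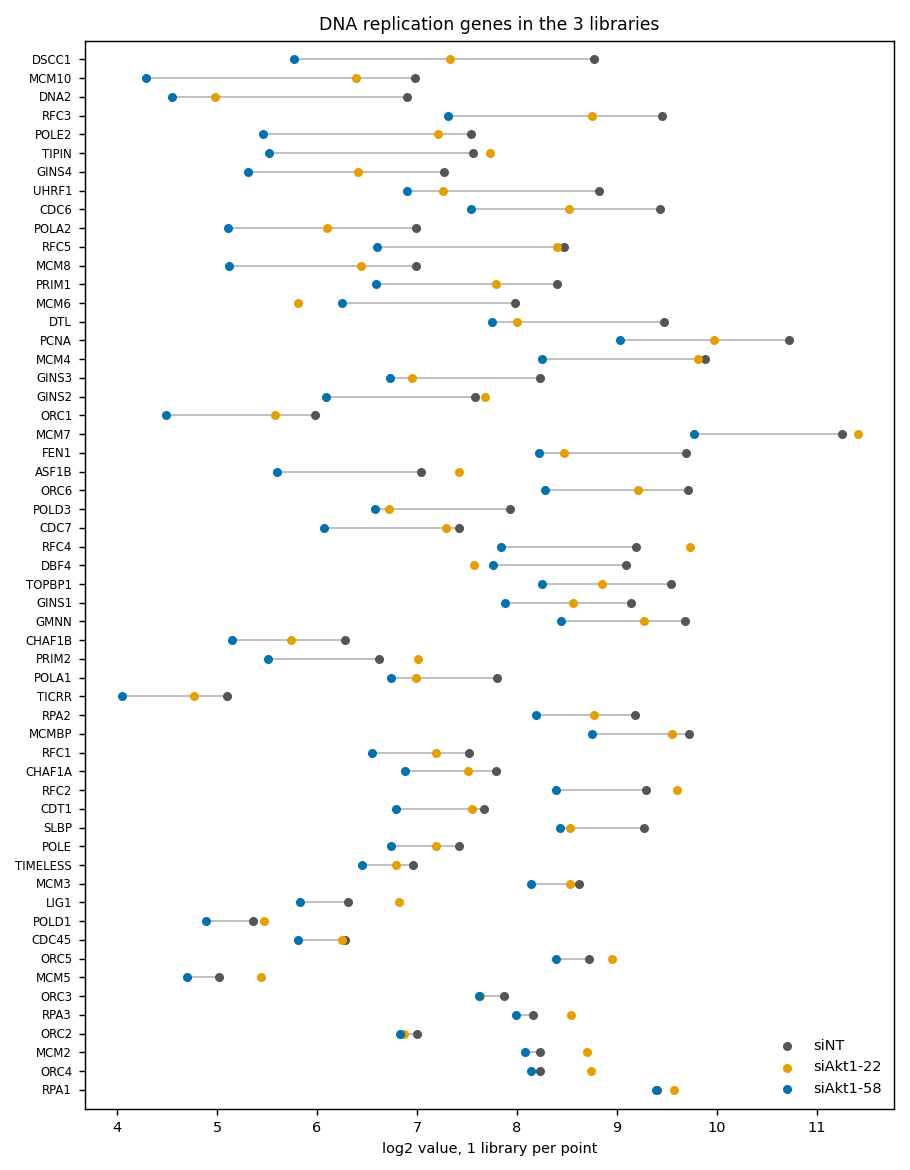
Log2 values (horizontal axis) of the 56 DNA replication genes in the 3 libraries, 1 point per library, ordered by the difference of siAkt1-58 from siNT, with a grey line joining these. All 56 siAkt1-58 points lie left of siNT, from DSCC1 at -3.0 to RPA1 at -0.01.

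Upstream of S phase, the G1/S list had 9 of 22 measured genes at least 2-fold lower (40.9%, against 3.58% of all genes), 0 higher and a median of -0.61. With siAkt1-22 it had 8 lower, against 5.97% of all genes, 1 higher, against 4.40%, and a median of -0.61. The cyclins and kinases made up 8 of those 9. CCND1, cyclin D1, read 10.86 with siNT, 9.70 with siAkt1-22 and 8.90 with siAkt1-58, with -1.77 to -1.93 on its other probe sets. CCND3 read 7.85, 8.10 and 6.72, and CCND2 8.55, 3.53 and 7.25, so that the D cyclins CCND2 and CCND3 differed in which siRNA gave the lower value. CDC25A, the phosphatase that activates CDK2, differed by -1.84, CCNA2, cyclin A2, by -1.42, CDK2 by -1.24 and CCNE1 by -1.21. CDK6 differed by -0.69 (-2.31 with siAkt1-22), and CDK4 was the member above siNT, at 0.51. Of 12 E2F factors and pocket proteins all read below siNT, but E2F8, a repressor of the family at -1.73, was the one 2-fold lower, and E2F1 differed by -0.50 and RB1 by -0.69. Of 6 measured CDK inhibitors, with a median of 0.08, 1 was 2-fold higher, CDKN2B, which encodes the CDK4 and CDK6 inhibitor p15. It read 5.48, 7.93 and 8.56 and differed by 2.67 on a dimmer probe set, so that both siRNAs lay more than 2-fold above siNT. CDKN1A, p21, read 8.92 and 9.86 with siNT and siAkt1-58 (1.02 on its other probe set), and CDKN1B, p27, 7.72 and 7.12.

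Nucleotide supply genes were lower by less, with a median of -0.41 (-0.19 with siAkt1-22). At least 2-fold lower were 4 of 28 (3 with siAkt1-22), against 3.58% of all genes (5.97% with siAkt1-22), with 25 below siNT. Besides TYMS these were the ribonucleotide reductase subunits RRM2, which read 10.38 with siNT, 9.54 with siAkt1-22 and 8.92 with siAkt1-58, and RRM1, which read 9.69, 9.46 and 8.49, and the purine enzyme PFAS (-1.72). The other probe sets of PFAS differed by -0.13 to 0.03 and so did not share its difference, whereas those of RRM1 above the filter level differed by -1.12 to -1.25. DCK, a deoxynucleoside kinase, differed by -0.91, DUT, which removes dUTP, by -0.72, TK1, thymidine kinase, by -0.64, and DTYMK, which acts on the product of TYMS, by -0.63. Thus TYMS, at -4.09, stood apart in size from the enzymes next to it. The count of 4 depends on the probe set. Other probe sets differed by -0.79 to -1.23 for DCK and by -0.30 to -1.13 for GART, which differed by -0.40 on its brightest.

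Among repair and checkpoint genes 16 of 28 were at least 2-fold lower, against 3.58% of all genes, and 26 read below siNT. The list median was -1.19 (-0.50 with siAkt1-22). Homologous recombination and Fanconi genes gave 13 of the 16. BARD1, the partner of BRCA1, read 6.15 with siNT, 5.40 with siAkt1-22 and 4.24 with siAkt1-58, and WEE1, the kinase that holds CDK1 inactive, 8.80, 8.43 and 6.97. BLM, a helicase of recombination, was lower with siAkt1-22 (-1.91) as well as with siAkt1-58 (-1.67). The checkpoint kinase ATM was above siNT, at 0.39, and the mismatch repair gene PMS2 at 0.15.

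Of 55 mitotic genes 54 read below siNT, 20 of them at least 2-fold, against 3.58% of all genes. The list median was -0.85 (-0.45 with siAkt1-22, where 13 were 2-fold lower, against 5.97% of all genes). After CENPA the lowest were ESPL1, the separase that cuts cohesin, which read 6.49 with siNT, 6.03 with siAkt1-22 and 4.71 with siAkt1-58, and KIF23, a kinesin of cytokinesis, which read 8.92, 8.24 and 7.24. MAD2L1, of the spindle checkpoint, read 10.24, 9.76 and 8.62, with -1.64 and -1.61 on its other probe sets above the filter level. PLK4, the kinase of centriole duplication, was lower with siAkt1-22 (-2.33) than with siAkt1-58 (-1.62). PRC1, a spindle midzone protein, was the member above siNT, at 0.06. Promoter stretches of 3 of these genes follow, with capitals on the CHR letters (TTTGAA or TTCGAA, either strand).
CENPA, chr2:26786001-26786080, plus strand: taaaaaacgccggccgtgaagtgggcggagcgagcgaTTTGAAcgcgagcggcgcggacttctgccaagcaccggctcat
ESPL1, chr12:53268231-53268310, plus strand: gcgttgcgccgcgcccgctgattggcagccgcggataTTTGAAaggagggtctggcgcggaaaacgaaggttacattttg
MAD2L1, chr4:120066819-120066898, minus strand: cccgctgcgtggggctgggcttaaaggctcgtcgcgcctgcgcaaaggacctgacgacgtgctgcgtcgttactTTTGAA
These letters were found for 37 of 48 mitotic genes with a promoter sequence (77.1%), against 16.2% of genes tested, 23.7% of the genes at least 2-fold lower and 6.25% of DNA replication genes. The shorter element is common, at 19.5% of all genes in the promoter table. Mitotic genes with and without it differed from siNT to a like extent, with medians of -0.85 and -0.87 (37 and 11 genes).

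The G1/S, nucleotide supply, DNA replication, repair and checkpoint, and mitotic lists are called here the 5 lists of the cell cycle. Together they held 189 measured genes, of which 182 read below siNT. At least 2-fold lower were 84 (44.4%, against 3.58% of all genes) and at least 2-fold higher 0. The median was -0.90. With siAkt1-22 it was -0.37, and 42 were at least 2-fold lower, against 5.97% of all genes. Members of these lists, 189 of the 12779 genes tested, made up 84 of the 457 lower genes (18.4%) and 0 of the 197 higher ones. The CDK inhibitor and histone lists were kept apart from these 5. Among them 1 of 6 CDK inhibitors and 4 of 13 histone genes were at least 2-fold higher, against 1.54% of all genes. At least 2-fold lower were 0 CDK inhibitors and 3 histone genes.

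Outside the cell cycle, a group of YAP/TEAD and SRF targets held some of the largest differences. The YAP/TEAD targets respond to cytoskeletal tension and are restrained by cell contact through the Hippo pathway. CCN2, a matricellular growth factor, read 6.07 with siNT, 4.02 with siAkt1-22 and 2.98 with siAkt1-58. AXL, a receptor tyrosine kinase, read 10.37, 9.99 and 7.54, but its other probe set differed by -0.44. ANKRD1, a muscle and stress response protein, read 5.84, 5.59 and 3.20. EDN1, the vasoconstrictor endothelin 1, differed by -1.46, AMOTL2, a YAP-binding scaffold, by -1.27 (-0.02 on another probe set), the factor TEAD4 by -1.15 and CCN1 by -1.07. Of 24 measured targets these 7 were 2-fold lower, against 3.58% of all genes, and 15 read below siNT, against 37.0%. The median was -0.10, so the list as a whole stayed near the median of all genes. With siAkt1-22, 1 was 2-fold lower, CCN2, against 5.97% of all genes. The promoter windows of the 3 lowest show the TEAD letters (GGAATG on either strand) in capitals.
CCN2, chr6:131951499-131951578, minus strand: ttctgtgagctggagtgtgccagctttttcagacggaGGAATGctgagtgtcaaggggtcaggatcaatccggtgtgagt
AXL, chr19:41226506-41226585, plus strand: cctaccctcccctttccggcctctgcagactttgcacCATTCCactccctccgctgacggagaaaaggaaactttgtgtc
ANKRD1, chr10:90921258-90921337, minus strand: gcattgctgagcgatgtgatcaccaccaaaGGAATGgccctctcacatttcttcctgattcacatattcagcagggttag
These letters were found for 11 of 18 of the targets (61.1%), against 15.2% of genes tested and 15.7% of those at least 2-fold lower. The list holds known targets, so a high share follows in part from its choice. The 11 targets with a match had a median of -0.55 and the 7 without one 0.

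Inflammatory cytokines had a median of -0.41, with 11 of 14 below siNT, against 37.0% of all genes. At least 2-fold lower were 4 (28.6%, against 3.58% of all genes). CXCL8, interleukin 8, a neutrophil attractant, read 6.70 with siNT, 6.55 with siAkt1-22 and 4.43 with siAkt1-58, with -1.39 and -0.89 on other probe sets. CXCL1, of the same family, read 7.29, 6.94 and 5.51, but another probe set differed by -0.18. TNFAIP3, a brake on NF-kappaB, read 7.94, 9.16 and 6.26, and CCL20 differed by -1.37. For CXCL8, CXCL1 and TNFAIP3 siAkt1-58 lay at least 2-fold below both other libraries, whereas IL1B was lowest with siAkt1-22 (-2.47 against -0.93).

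On the high side the leading genes came from many roles. ANKRD22, an ankyrin repeat protein, read 6.84, 8.54 and 9.45 with siNT, siAkt1-22 and siAkt1-58, and its other probe set differed by 2.13. ITGB8, an integrin that activates latent TGF-beta, read 5.34, 3.83 and 7.92, highest with siAkt1-58 and lowest with siAkt1-22, and its other probe sets, all below the filter level, differed by -0.06 to 0.81. AHNAK2, a large scaffold protein, read 6.67, 5.15 and 8.82, with 2.60 and 2.10 on other probe sets. MYL12B, a myosin regulatory light chain, read 9.16, 10.91 and 11.20, and TXNIP, which binds thioredoxin and limits glucose uptake, 5.79, 7.96 and 7.65, with 1.35 to 2.43 over its 5 probe sets. TSPAN31 differed by 2.37 (1.93 on the other probe set), CHIC1 by 2.39 (0.00 on the other probe set) and ST6GALNAC2, a sialyltransferase, by 2.05. PIP4P2, a phosphoinositide phosphatase, read 6.71, 7.19 and 8.82, and MAF, a transcription factor, 3.45, 3.73 and 5.48. The mitochondrial pyrophosphatase PPA2 differed by 1.98, with 4 other probe sets at 1.41 to 2.21 and others at 0.06 and 0.00. MRS2, a mitochondrial magnesium channel, read 5.17, 5.69 and 7.14, with 5 other probe sets at 1.04 to 2.52 and another at -0.68. CLCA2, of the squamous epithelium, read 3.51, 3.68 and 5.41, the cadherin FAT2 5.63, 6.32 and 7.46, and IL6R, the interleukin 6 receptor, 6.70, 4.98 and 8.43, with 1.57 and 0.96 on other probe sets. KIF3A (1.73) and IFT81 (1.76), of the transport system of cilia, ERG28 (1.90) and ZNF117 (1.77) complete the 20 highest. MAF and CLCA2 read below the filter level with siNT and siAkt1-22, so they passed the filter only through siAkt1-58. Their other probe sets, all below the filter level, differed by 0.00 for MAF and by 0.04 and 0.46 for CLCA2.

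The siAkt1-22 library divided these genes into 3 classes. A gene was called shared where siAkt1-22 was also at least 2-fold from siNT on the same side, and private where it was not and siAkt1-58 lay at least 2-fold beyond siAkt1-22 too. Of the 457 lower genes 192 were private (42.0%; 1.5% of all genes tested), 150 shared (32.8%) and 115 between (25.2%). Of the 197 higher genes 51 were private (25.9%; 0.399% of all genes), 94 shared (47.7%) and 52 between (26.4%). For comparison, siAkt1-22 had 763 genes at least 2-fold lower than siNT (5.97%) and 562 higher (4.40%). A shared difference is a match of 2 libraries that use the same siNT value, so an error in that value appears in both. Of the private genes, siAkt1-22 lay within 0.5 of siNT for 143 lower and 30 higher genes. With the mean of all probe sets of a gene in place of the brightest, the higher genes were 81 and the private ones among them 20. The cell cycle lists supplied 31 of the 192 private lower genes (16.1%), 26 of the 150 shared ones (17.3%) and 27 of the 115 between (23.5%). These lists held 189 of all 12779 genes. Of the 35 lower DNA replication genes, 16 were private, 9 shared and 10 between.

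Besides TYMS, MMUT, CENPA, CDCA7, ARSB, MAML2, AXL and ANKRD1, the 10 private genes furthest below the nearer of the other libraries included GPR180 and TMEM158. GPR180, a G protein-coupled receptor family member, read 8.78 with siNT, 8.80 with siAkt1-22 and 6.18 with siAkt1-58, with -1.72 on another probe set. TMEM158, a membrane protein, read 6.81, 7.50 and 4.38. The 10 private genes furthest above the nearer library, besides ITGB8, AHNAK2, MAF, IL6R, CLCA2 and PIP4P2, included ABCA1, the cholesterol exporter, which read 6.16, 6.05 and 7.88. Of these, MAF and CLCA2 passed the filter only through siAkt1-58. SOCS2, a cytokine signalling inhibitor, read 5.86, 3.56 and 7.49, with 1.70 on another probe set, and NEFL, a neurofilament chain, 6.44, 5.24 and 8.0, with 1.58 and 0.91. ZCCHC24 read 5.44, 5.43 and 6.94, with 1.42 and 0.18 on other probe sets. For ITGB8, AHNAK2, IL6R, SOCS2 and NEFL the siRNAs lay at least 2-fold from siNT on opposite sides, while ABCA1, ZCCHC24 and GPR180 had nearly equal values with siNT and siAkt1-22.

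**Figure D3:**
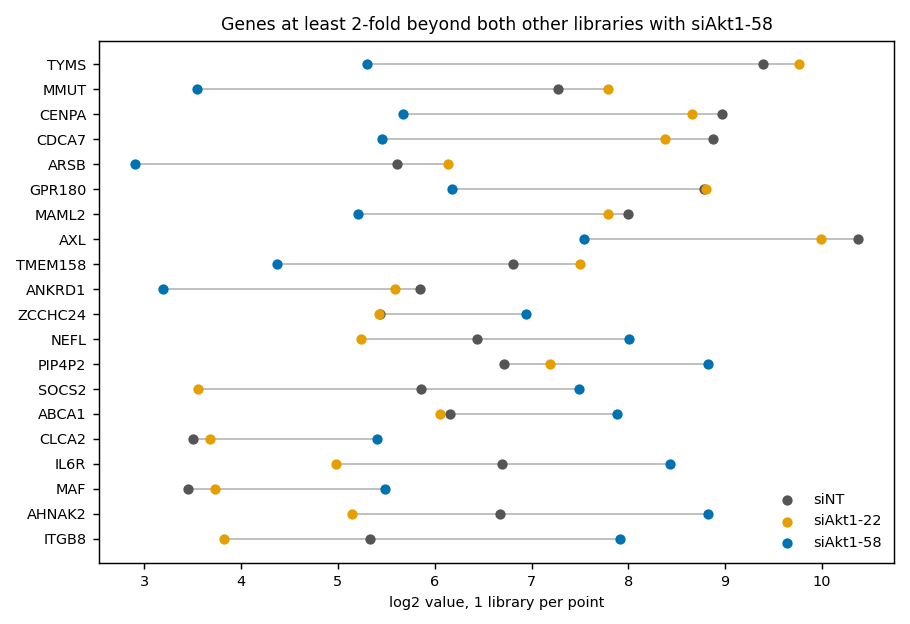
Log2 values (horizontal axis) in the 3 libraries, 1 point per library, of the 10 lowest and 10 highest genes by distance of siAkt1-58 from the nearer of the other libraries. TYMS, MMUT and CENPA lie far left of both other libraries, and ITGB8 and AHNAK2 far right of both.

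TGF-beta and BMP signalling genes differed in both directions, with 5 of 36 at least 2-fold higher, against 1.54% of all genes, 7 lower, against 3.58%, and a median of 0. Among receptors, TGFBR2, the type II receptor, read 9.16 with siNT, 6.51 with siAkt1-22 and 10.27 with siAkt1-58, and BMPR2 6.05, 4.92 and 7.40, while TGFBR1 and ACVR2B (-1.55; -0.21 on another probe set) were lower. Among ligands, INHBA and TGFB2 differed by -1.44 and -1.41 and GDF15 by 1.55. SMAD4, the common mediator, read 7.48, 8.0 and 6.34, the repressor SKIL differed by -1.37, and the BMP targets ID1 and ID2 were higher by 1.15 and 1.31. TGFBR2 and BMPR2 were therefore above siNT with siAkt1-58 and more than 2-fold below it with siAkt1-22.

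Lists tied to AKT differed little in their medians. Over all genes 1.54% were at least 2-fold higher (4.40% with siAkt1-22) and 3.58% at least 2-fold lower. By any amount 45.6% read above siNT and 37.0% below. AKT and PI3K pathway genes had a median of 0.20. Of 25, 1 was at least 2-fold higher, the mTOR partner RPTOR (1.09, with 0.02 and 0.15 on other probe sets above the filter level). At least 2-fold lower were 2, AKT1 and the insulin receptor substrate IRS1 (-1.01, with -0.06 and -0.56 on other probe sets). FOXO factors and targets had a median of 0.12. Of 26, TXNIP was higher and GADD45B lower (-1.34, and 1.15 with siAkt1-22), a lower share of 3.85%, near that of all genes. With siAkt1-22 the FOXO median was 0.53 and 8 were 2-fold higher. Among 37 growth factor signalling genes 4 were 2-fold lower, led by IGFBP3, which binds insulin-like growth factors (-2.29), and EGFR lay just under the limit at 0.997 with other probe sets above the filter level from -0.11 to 0.95. p53 targets had a median of 0.13, with GDF15 higher and DDB2 (-1.37) and MDM2 (-1.18) lower of 22. The 15 BCL2 family genes had 0 at either limit on their brightest probe sets. Other probe sets above the filter level differed by -1.41 to 0.14 for MCL1 and by 0.00 to 1.13 for BAK1, so this count depends on the probe set. MYC and ribosome biogenesis genes had a median of -0.32, with 25 of 31 below siNT. ODC1, the polyamine enzyme, was the one 2-fold lower (-1.13) and the MYC antagonist MXD1 the one 2-fold higher (1.33), and MYC itself differed by 0.18.

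Of 23 epithelial junction genes 18 read above siNT, against 45.6% of all genes, with a median of 0.36. Among them 1, the adhesion molecule NECTIN4 (1.62, with 0.30 and 0.22 on other probe sets), was 2-fold higher, against 1.54% of all genes. JUP and DSP, of desmosomes, differed by 0.86 and 0.73. The 15 squamous epithelium genes had a median of 0.26, with 8 above siNT and 5 below, and the 11 EMT factors and markers a median of 0, with 0 at the limit in both lists. Of 11 integrins ITGB8 was at the limit, with a median of 0.10. Matrix and invasion genes had a median of -0.24. Of 24, 1 was at least 2-fold lower, the protease inhibitor SERPINE2 (-1.57), a share of 4.17%, near the 3.58% of all genes. Of the 24, 16 read below siNT, against 37.0% of all genes. These were 10 of 10 matrix proteins, with a median of -0.42, and 6 of 14 proteases and inhibitors, with a median of 0.

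For the lists that follow, the shares over all genes were 1.54% at least 2-fold higher, 3.58% at least 2-fold lower and 45.6% above siNT. Interferon and RNA sensing genes had a median of 0.12, with 3 of 40 at least 2-fold higher. These were the RNA-sensing synthetase OAS1 (1.52, with 0.36 to 1.51 on other probe sets), the signalling factor IRF9 (1.08, with 0.13 to 0.71) and SOCS2. With siAkt1-22 the median was 0.52 and 15 were 2-fold higher, against 4.40% of all genes. The 14 RNA interference genes had a median of -0.02 and 0 at the limit, against -0.41 with siAkt1-22. Autophagy and lysosome genes had a median of 0.21 with 23 of 31 above siNT, and WIPI1, of autophagosome formation, was the one 2-fold higher (1.28; 1.43 on another probe set). Glycolysis and hypoxia genes had a median of 0.12, with 9 of 9 hypoxia targets and 12 of 19 glucose uptake and glycolysis genes above siNT, against 45.6% of all genes, and the mTOR brake DDIT4 2-fold higher (1.20). Of 13 histone genes 4 were 2-fold higher, led by H2AC6 (1.47) and H2BC21 (1.42), and 3 lower, at -1.02 to -1.03, with a list median of -0.10. The remaining lists had 1 or 0 genes at the limit: 20 cholesterol and fatty acid synthesis genes (median 0.10), 18 respiratory chain genes (0.11, with the complex I subunit NDUFB5 at -1.43 and -1.55 on its 2 probe sets), 24 unfolded protein and ATF4 genes (-0.03, with EDEM1 at -1.32 but 0.00 to 0.11 on others) and 14 NRF2 targets (0.07).

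**Figure D4:**
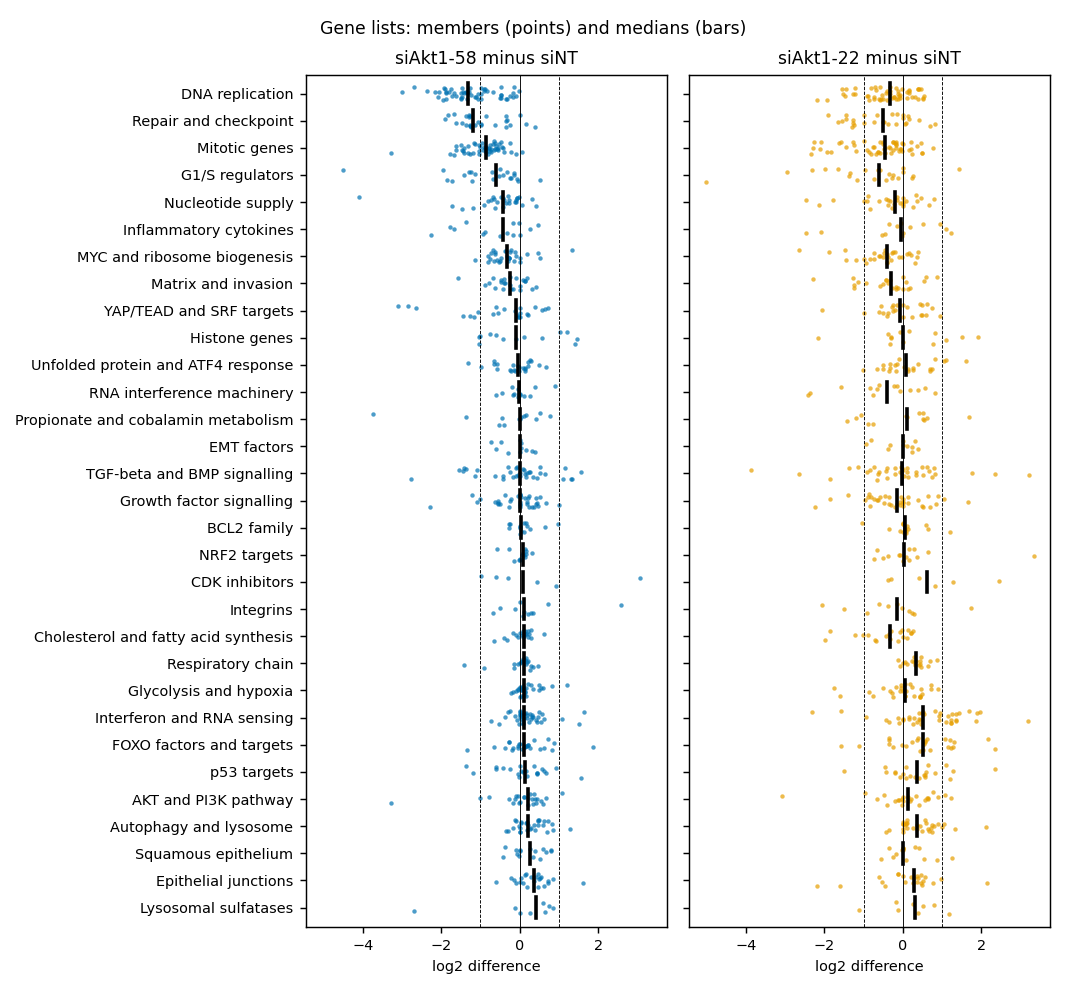
Log2 differences from siNT (horizontal axis) of the members of 31 gene lists, 1 point per gene, with siAkt1-58 on the left and siAkt1-22 on the right; black bars are list medians, dashed lines mark 2-fold, and both panels use the same siNT library. DNA replication is lowest with siAkt1-58, with a median of -1.31 against -0.33 with siAkt1-22.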

How the data were processed

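For each of 3 arrays the authors deposited 1 log2 value per probe set (49386 probe sets, medians 4.58 to 4.59, range 2.20 to 13.4). The submitters' processing notes name RMA but no settings, and the log2 scale was inferred from this range. RMA sets the arrays' distributions nearly equal, and no detection calls were used here, so the number of arrays limits the precision. Probe sets with 1 gene symbol in the platform annotation were kept (45253; 1327 with several and 2713 not listed were left out, as were 93 controls), with symbols updated through Entrez identifiers for 45172. Differences were computed in Python 3.11.15 with pandas 2.3.3 and counted at a log2 difference of 1, with no test. The genes named are the AKT genes, the 20 highest and 20 lowest, the 10 private ones on each side furthest from the nearer of the other libraries, the leading members of each list (at most 5, and 2 at its other end), and any member of the replication, nucleotide and G1/S lists. Others further down a list, among them SMAD4, SKIL, INHBA, TGFB2, TEAD4, CCN1 and MYC, are outside this rule and were named after their values were seen. The members, the 31 lists and the motifs were chosen with earlier results of these data known. The counting was tested on simulated data. Promoters came from RefSeq (GRCh38.p14, 250 bases before to 50 after the start) for 10414 of 12779 genes by symbol, and a gene with several promoters counts as holding a motif if any does. The files name no genome build and no siRNA sequences are given in the sources used here. Alternatives were other probe set rules, centring, quantile and loess normalization, other filters and limits, and tied genes left out.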

Additional observations from a re-analysis of the deposited data

Results flagged for a closer look

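In 10 genes siAkt1-58 was at least 2-fold above siNT and siAkt1-22 at least 2-fold below it, among them ITGB8, AHNAK2, IL6R, SOCS2, NEFL, TGFBR2 and BMPR2. In 12 genes the sides were exchanged, among them SDHAF3 (-1.98 with siAkt1-58 and 1.03 with siAkt1-22), TNFAIP3 and GADD45B. These are opposite sides of 1 siNT library with 1 library each, and the difference was not tested. Signal outside the comparison by gene also met the size rule: with siAkt1-58, 23 of the 2713 probe sets that the annotation does not list read at least 2-fold above siNT and 54 at least 2-fold below. Probe sets that name more than 1 gene (1327) gave 14 above and 21 below.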

How the results depend on the processing

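Counts by gene were 197 higher, 457 lower, 51 private higher, 192 private lower and 35 lower DNA replication genes as reported. With the mean of all probe sets of a gene they were 81 higher and 20 private higher, with 341 lower, 135 private lower and 33 replication genes. With probe sets as the unit they were 412, 1020, 98, 391 and 81. A limit of 1.5-fold gave 841, 1117, 254 and 483, and a limit of 3-fold gave 31, 154, 8, 55 and 17. Median centring, quantile and loess normalization, no filter, a filter at the 50th percentile, the brightest probe set of the pair and tied genes left out kept each of these counts within 1.5 times, from 173 to 215 higher, 414 to 505 lower and 34 to 38 replication genes. Of 135 named genes past the limit, 93 of the 132 with a value stayed past it with averaged probe sets and 133 after quantile normalization, and none changed side. No paired analysis was possible because each group is 1 library, and for the same reason no replicate could be left out. Values below the filter level, as for AKT1, MMUT, ARSB, CCN2 and ANKRD1 with siAkt1-58, may understate a difference by an unknown amount. The filter level is not a detection limit, and this was not tested.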
